A study of Arabidopsis thaliana with 6 samples.

Results

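AURORA2 (AUR2, AT2G25880) of *Arabidopsis thaliana* lies on chromosome 2 (Chr.2) at the site of a T-DNA insertion, *aur2-1*, that coincides with a chromosome breakpoint. AUR2 is described here with the 9 flanking genes that were measured by a single-locus probe set and counted as expressed: 5 genes that precede it and 4 genes that follow it in locus order. These are 10 genes of 7244 expressed genes. They were chosen by position among genes counted as expressed. Aurora kinases are serine/threonine kinases that act on the spindle, the centromere and the division plane of dividing cells. Plants have a family of them, in which AUR1 and AUR2 are close relatives that act at the spindle and the forming cell plate, whereas AUR3 acts on chromosomes. Their transcripts are typical of dividing tissue and are scarce in fully grown leaves.

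Rosette leaves of 26-day-old plants grown with 16 h of light and 8 h of dark at 22 °C were profiled on 6 Affymetrix ATH1 arrays, 2 for each karyotype. Tertiary trisomy 2 (*AAa*) is the *aur2-1* line, a single Wisconsin DsLox T-DNA line in the Col-0 background. Its extra chromosome holds Chr.2 up to AUR2, followed by the end of chromosome 3 (Chr.3) that lies before AT3G20040. Trisomy 2 (*AAA*) has a complete extra Chr.2 and came from the same line, without the T-DNA. Wild type (WT) is diploid Col-0. Each RNA sample was pooled from 21 to 35 plants, and the trisomics were picked by their round leaves and then genotyped. The genes before AUR2 therefore have 3 copies in both trisomics and 2 in WT, and the genes after AUR2 have 3 copies in *AAA* and 2 in *AAa* and WT. AUR2 itself has 3 intact copies in *AAA*, 2 intact copies plus the interrupted copy in *AAa*, and 2 intact copies in WT.

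Median signal was between 155 and 171 on the 6 arrays. Across the 7244 expressed genes, log2 signals correlated at 0.983 to 0.987 within a karyotype and at 0.955 to 0.965 between karyotypes. Of the defining markers of leaf, the rubisco activase gene RCA was the only one of 7 with a named probe set. It gave 28104 and 32034 in *AAa*, 39283 and 48047 in *AAA*, and 46456 and 42830 in WT, and was lower in *AAa* than in WT (log2 -0.53, limma adjusted p = 0.0129). One marker each of the shoot meristem (CLV3, 1.64 to 25.9) and pollen (ACT12, 3.16 to 23.4) was measured, and both were far below the limit for an expressed gene. The flower, root and seed lists had no named probe set. That the 2 arrays of a karyotype came from separate plantings is not stated in the sources used here, so p-values measure the spread between these samples, which may be technical.

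AUR2 was bright in *AAa* leaves and dim in both other karyotypes. It gave a signal of 978 and 954 in *AAa*, against 65.8 and 68.2 in *AAA* and 70.5 and 63.5 in WT. Both *AAa* arrays lay far above the other 4, and the *AAA* and WT arrays overlapped. After the arrays had been centred on genes with 2 copies in every karyotype, AUR2 averaged 968 ± 2.20 in *AAa*, 68.9 ± 2.27 in *AAA* and 65.0 ± 4.90 in WT (SD, n = 2 each). The limit for an expressed gene was a mean signal of 77.8 over the 6 arrays. AUR2 passed it through the *AAa* arrays alone, since all 4 other arrays were below it.

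The AUR2 signal in *AAa* was 12.4-fold above the limit for an expressed gene. Since the WT and *AAA* signals lie under that limit, ratios over them are ratios of measured signals and not exact transcript folds. The measured ratio of *AAa* to WT was 14.9 (log2 3.90, SE 0.20, limma adjusted p = 4.17e-09), and that of *AAa* to *AAA* was 14.1 (log2 3.81, SE 0.20, limma adjusted p = 1.18e-09). With no limit on dim genes the adjusted p was 2.54e-05 for *AAa* over WT and 7.49e-06 for *AAa* over *AAA*. Among the 7244 genes, which AUR2 joined through its *AAa* arrays, its log2 ratio was the highest in both comparisons. The next highest for *AAa* over WT, that of AT1G52000, was 2.38. Both ranks are given as a description. Of all expressed genes, 14.2% were called higher in *AAa* than in WT, and 10.7% were called higher in *AAa* than in *AAA*.

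In *AAA*, with 3 intact copies, the AUR2 signal was not distinguishable from that of WT (log2 0.08, 95% interval -0.33 to 0.50, limma adjusted p = 0.842). This interval does not hold 0.58, the log2 of 3 copies over 2. Both groups were under the limit for an expressed gene, where a signal need not scale with transcript amount. By log2 ratio AUR2 ranked 3195 of 7244 in that comparison. The order of its levels was thus *AAa* first, with *AAA* and WT not separated beyond their spread.

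No source used here says which stretch of AUR2 the probes cover relative to the T-DNA and the breakpoint. The *AAa* signal therefore may hold transcripts of the interrupted copy as well as of the intact copies, and these cannot be told apart on the arrays. In whole leaves, more transcript per cell and more cells that express a gene cannot be told apart either. Of 3 array controls for RNA quality, each a signal at the 3' end over that at the 5' end, that of ubiquitin differed by karyotype. On the log2 scale it was 1.14 and 1.35 in *AAa*, 1.68 and 1.56 in *AAA*, and 1.64 and 1.86 in WT, so both *AAa* arrays were lowest. The actin control (2.86 and 3.52 in *AAa*, 3.30 and 3.74 in *AAA*, 3.51 and 3.90 in WT) and the GAPDH control (0.48 and 0.07 in *AAa*, 0.25 and 0.32 in *AAA*, 0.04 and 0.08 in WT) did not set *AAa* apart. The part of the ubiquitin difference in the AUR2 signal was not tested.

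**Figure D1:**
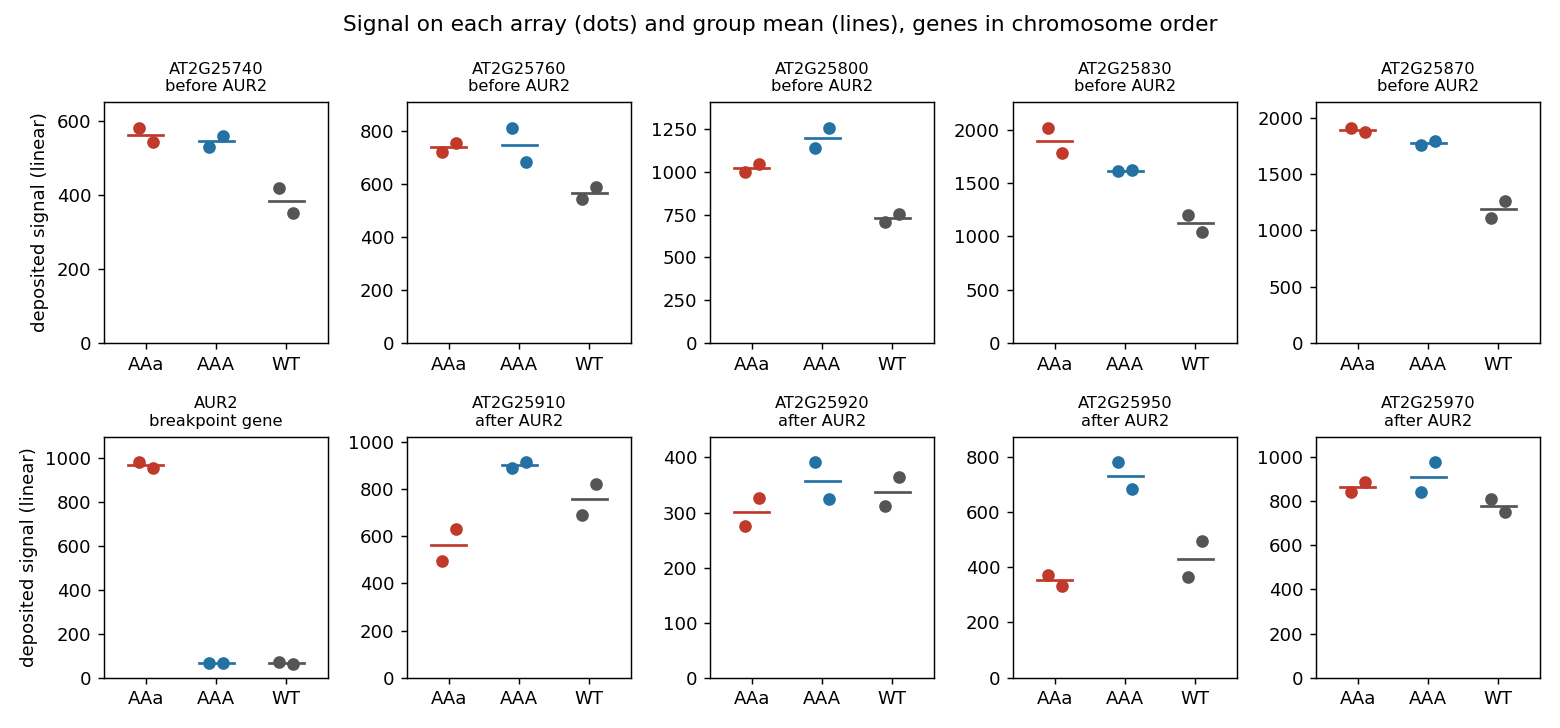
Deposited signal (linear, each panel from 0 on its own scale) of AUR2 and its 9 flanking genes on each array (dots), with the mean of each karyotype (lines), in the order *AAa*, *AAA*, WT. AUR2 lies at 954 and 978 in *AAa* and at 63.5 to 70.5 elsewhere, the 5 genes before it are lowest in WT, and AT2G25950 after it is highest in *AAA*.

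The 5 genes before AUR2 were higher in both trisomics than in WT and showed no call between the trisomics. The annotation used here gives these genes a locus number and no symbol. Going towards AUR2 they are AT2G25740, AT2G25760, AT2G25800, AT2G25830 and AT2G25870. For each of them, both arrays of *AAa* and both arrays of *AAA* lay above both WT arrays. That order was met by 34.8% of all expressed genes and 83.9% of those on Chr.2 up to AUR2 for *AAa*, and by 32.4% and 83.6% for *AAA*.

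AT2G25870, the gene next to AUR2, had a signal of 1914 and 1877 in *AAa*, 1760 and 1800 in *AAA*, and 1115 and 1263 in WT. The trisomics were nearly level with each other and clear of WT. It rose 1.65-fold in *AAa* over WT (log2 0.72, SE 0.12, limma adjusted p = 0.000413) and 1.59-fold in *AAA* over WT (log2 0.67, SE 0.12, limma adjusted p = 0.00103). The log2 ratio of *AAa* to *AAA* was 0.05 (95% interval -0.19 to 0.30). The sharp rise of the AUR2 signal in *AAa* thus was not seen in its immediate neighbour. A second probe set of AT2G25870 gave 592 and 531 in *AAa*, 419 and 425 in *AAA*, and 300 and 153 in WT. These signals run the same way with larger ratios, 2.70-fold for *AAa* over WT and 2.08-fold for *AAA* over WT. For this probe set the ratio of *AAa* to *AAA* was 1.30 (log2 0.37). Both *AAa* arrays lay above both *AAA* arrays, but the difference did not pass the test (limma adjusted p = 0.255).

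AT2G25830 had a signal of 2020 and 1778 in *AAa*, 1609 and 1626 in *AAA*, and 1204 and 1045 in WT. It had the largest log2 ratio of the 5 genes in *AAa*, 0.80 (SE 0.12, limma adjusted p = 0.000245), and 0.61 in *AAA* (SE 0.12, limma adjusted p = 0.00254). Both *AAa* arrays were above both *AAA* arrays, but the difference did not pass the test (log2 0.19, adjusted p = 0.284). AT2G25800 lay the other way round, with 998 and 1045 in *AAa*, 1140 and 1259 in *AAA*, and 707 and 753 in WT. Its log2 ratio to WT was 0.53 in *AAa* (SE 0.12, limma adjusted p = 0.006) and 0.80 in *AAA* (SE 0.12, limma adjusted p = 0.000396). Between the trisomics it differed by -0.27, with both *AAa* arrays below both *AAA* arrays (95% interval -0.53 to -0.01, adjusted p = 0.137). Without *AAa* array 2 its call in *AAa* was lost (adjusted p = 0.0581).

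AT2G25740 had a signal of 581 and 542 in *AAa*, 529 and 558 in *AAA*, and 417 and 350 in WT. The trisomics overlapped, and both were 1.5-fold above WT (log2 0.60 in *AAa*, limma adjusted p = 0.00682; log2 0.59 in *AAA*, limma adjusted p = 0.00973; SE 0.14 each). Its calls were lost when WT array 2 was left out, and also without *AAa* array 1 for *AAa* and without *AAA* array 2 for *AAA* (limma adjusted p = 0.0608 to 0.0929). AT2G25760 had a signal of 721 and 755 in *AAa*, 811 and 683 in *AAA*, and 544 and 589 in WT. Its increase was the smallest of the 5, with a log2 ratio of 0.43 in *AAa* (SE 0.13, limma adjusted p = 0.031) and 0.48 in *AAA* (SE 0.13, limma adjusted p = 0.0228). Of the 5 genes this call was the one most often lost, in *AAa* without any of the *AAa* or WT arrays (limma adjusted p = 0.0583 to 0.164) and in *AAA* without *AAA* array 1 or WT array 1 (0.215 and 0.112). A second probe set of AT2G25760 gave 350 and 347 in *AAa*, 306 and 350 in *AAA*, and 263 and 263 in WT, log2 ratios of 0.45 and 0.40 to WT.

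All 5 genes were thus called higher in *AAa* than in WT, against 14.2% of all expressed genes and 59.2% of the 409 expressed genes on Chr.2 up to AUR2. In *AAA* all 5 were again called higher than in WT, against 11.3% of all expressed genes and 57% of the same stretch of Chr.2. Without *AAa* array 1, without *AAa* array 2 or without WT array 2, 3 of the 5 were called in *AAa*. Between *AAa* and *AAA* none of the 5 passed the limma test, and none of the 5 had an unadjusted p below 0.05 other than AT2G25800. Of all expressed genes 22.4% were called in that comparison, and 15.9% of those on Chr.2 up to AUR2.

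The median log2 ratio of the 5 genes was 0.60 in *AAa* and 0.61 in *AAA*. Those of Chr.2 up to AUR2 were 0.54 and 0.53 over 409 genes, and those of all expressed genes were 0.05 and 0.04. On each trisomic array the median of the 5 genes against the WT mean lay between 0.58 and 0.64. With the brightest probe set of each gene, the 95% interval of each of the 5 genes held 0.58, the log2 of 3 copies over 2, in both trisomics. For AT2G25870 this depended on the probe set. Its second probe set gave higher log2 ratios to WT, 1.43 in *AAa* and 1.06 in *AAA* (SE 0.22 each). The mean of its probe sets gave 1.08 in *AAa* and 0.86 in *AAA* (SE 0.14 each). The 5 genes were spread within their region. By log2 ratio AT2G25830 exceeded 84.1% of the 409 genes in *AAa*, AT2G25800 exceeded 84.6% in *AAA*, and AT2G25760 exceeded 36.2% in *AAa* and 40.1% in *AAA*.

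The 4 genes after AUR2 had no call in *AAa* against WT, and they differed from each other in *AAA*. Going away from AUR2 they are AT2G25910, AT2G25920, AT2G25950 and AT2G25970. They also carry a locus number and no symbol in the annotation used here. AT2G25950 and AT2G25910 separated the trisomics, and AT2G25920 and AT2G25970 did not.

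AT2G25950 had a signal of 373 and 334 in *AAa*, 779 and 682 in *AAA*, and 363 and 497 in WT. The *AAA* arrays stood clear of the other 4, and *AAa* overlapped with WT. It rose 1.82-fold in *AAA* over WT (log2 0.86, 95% interval 0.52 to 1.20, limma adjusted p = 0.00165). In *AAa* its log2 ratio to WT was -0.22 (SE 0.16, adjusted p = 0.368). Against *AAA*, the *AAa* signal fell by 1.08 on the log2 scale (95% interval -1.42 to -0.74, limma adjusted p = 0.000181). In the fit of all 6 arrays this is beyond the fall of 0.58 that 2 copies over 3 would give, since the interval does not hold that value. Without *AAA* array 1 the log2 ratio was -0.99 with a larger SE (0.21, against 0.16), so this reading is less sure without that array.

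AT2G25910, the first expressed gene past the breakpoint, had a signal of 495 and 633 in *AAa*, 892 and 914 in *AAA*, and 692 and 824 in WT. Its arrays fell in 3 separate levels, *AAA* at the top, WT next and *AAa* below. Against WT, the log2 ratio was -0.39 in *AAa* (SE 0.15, adjusted p = 0.0742) and 0.34 in *AAA* (SE 0.15, adjusted p = 0.145), neither of which passed the limma test. The direct comparison of *AAa* with *AAA* did, with a log2 ratio of -0.73 (95% interval -1.04 to -0.41, limma adjusted p = 0.002). The *AAa* value against WT was close to the threshold. With the arrays as deposited, centred on all expressed genes or quantile normalized, or without *AAa* array 2, AT2G25910 was called lower in *AAa* than in WT (log2 -0.43 to -0.58).

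AT2G25970 had a signal of 842 and 888 in *AAa*, 842 and 976 in *AAA*, and 810 and 750 in WT. Both trisomics were above WT by small amounts, a log2 ratio of 0.20 in *AAa* (adjusted p = 0.319) and 0.30 in *AAA* (adjusted p = 0.142). The trisomics overlapped, with a log2 ratio of -0.10 for *AAa* over *AAA* (95% interval -0.38 to 0.17). AT2G25920 had a signal of 275 and 327 in *AAa*, 391 and 325 in *AAA*, and 311 and 364 in WT. Its log2 ratio to WT was -0.12 in *AAa* (SE 0.17, adjusted p = 0.663) and 0.17 in *AAA* (SE 0.17, adjusted p = 0.588). *AAA* carries 3 copies of each gene, and the *AAA* intervals of AT2G25970 (0.03 to 0.57) and AT2G25920 (-0.19 to 0.52) both ended below 0.58. For AT2G25970 the margin was narrow, 0.574 against 0.585. With an array left out, the *AAA* ratio to WT was 0.19 to 0.41 for AT2G25970 and 0.04 to 0.29 for AT2G25920.

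In *AAa* against WT 0 of the 4 genes passed the limma test, and 1 of them, AT2G25910, had an unadjusted p below 0.05. Of all expressed genes 21% were called in either direction, and 16% of the 645 expressed genes on Chr.2 beyond AUR2. In *AAA* 1 of the 4 was called higher than in WT, against 11.3% of all expressed genes and 53.2% of Chr.2 beyond AUR2. Between the trisomics 2 of the 4 were called lower in *AAa*, against 11.7% of all expressed genes and 60.3% of Chr.2 beyond AUR2. In 3 of the 4, all but AT2G25970, both *AAa* arrays lay below both *AAA* arrays after centring (for AT2G25920 the deposited signals 327 and 325 still overlapped), as did 31.1% of all expressed genes and 84.5% of Chr.2 beyond AUR2. The medians of the 4 genes were -0.17 for *AAa* over WT, 0.32 for *AAA* over WT and -0.51 for *AAa* over *AAA*. Over the 645 genes the corresponding medians were -0.02, 0.50 and -0.54. In *AAA*, AT2G25950 exceeded 87.4% of those 645 genes, whereas AT2G25910, AT2G25970 and AT2G25920 exceeded 23.1%, 19.7% and 9.61%. The median for *AAa* over WT rests on the WT arrays, since it took the values -0.34 and -0.002 when array 1 or array 2 of WT was left out.

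**Figure D2:**
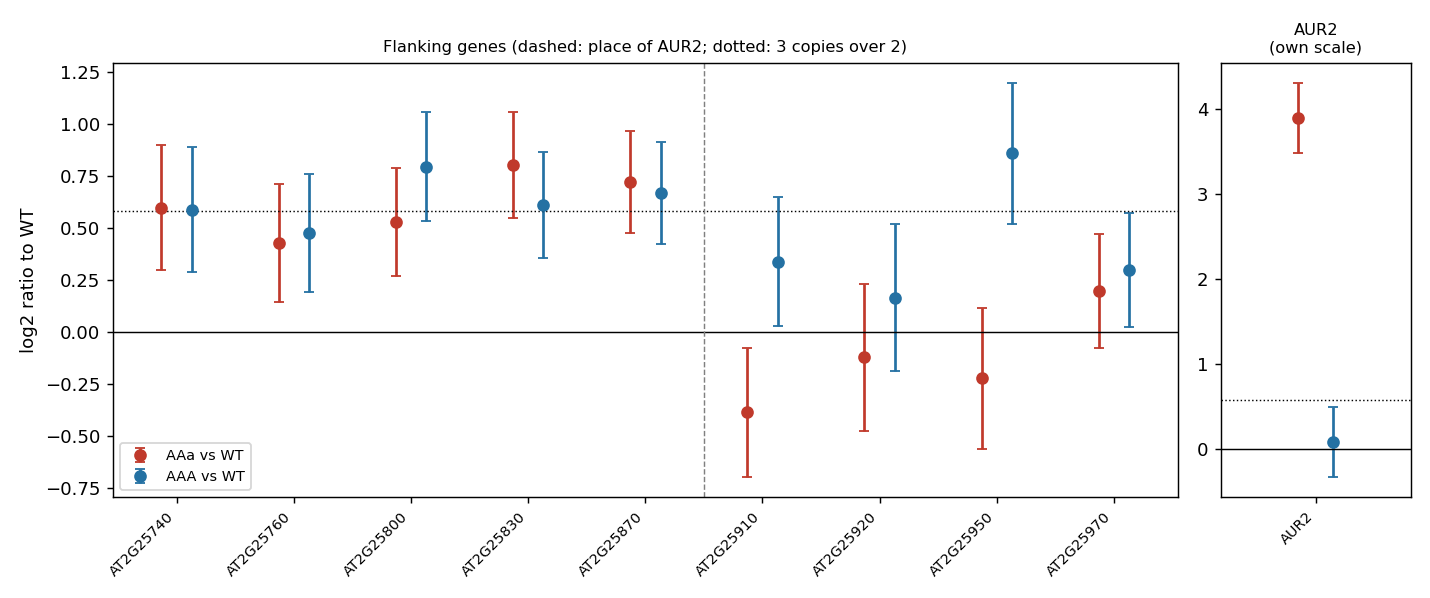
Log2 ratio to WT of the 9 flanking genes in locus order (left) and of AUR2 on its own scale (right), *AAa* and *AAA* side by side, with 95% intervals from limma; the dashed line marks the place of AUR2 and the dotted line the log2 of 3 copies over 2. All 10 ratios of the genes before AUR2 lie between 0.43 and 0.80, and after AUR2 the *AAa* ratios lie between -0.39 and 0.20.

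The annotation (RefSeq, TAIR10.1) lists 23 genes from AT2G25740 to AT2G25970, of which 13 had a named probe set. Apart from the 10 genes described above these were AT2G25780, AT2G25890 and ALPHA-VPE, which encodes a vacuolar processing protease. All 3 were dim on every array (2.13 to 31.6) and did not pass the limit for an expressed gene. The gene model of AT2G25890 overlaps that of AUR2, and its probe set gave 3.97 and 14.7 in *AAa*, 30.0 and 3.15 in *AAA*, and 2.51 and 2.13 in WT. The bright AUR2 signal of *AAa* was not seen in that probe set. Where its probes lie relative to AUR2, the T-DNA and the breakpoint is not known here, so its low signals do not bear on that of AUR2.

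Widening the view to the 20 expressed genes on each side of AUR2, which include the flanking genes above, gave a similar change of level at AUR2. Before it, the median log2 ratio was 0.58 for *AAa* over WT, 0.60 for *AAA* over WT and -0.05 for *AAa* over *AAA*. After it, the medians were -0.02, 0.53 and -0.52. Of the 20 genes before AUR2, 12 were called higher in *AAa* and 10 in *AAA* than in WT. The shares were 59.2% and 57% on Chr.2 up to AUR2, and 14.2% and 11.3% over all expressed genes. Of the 20 genes after it, 10 were called higher in *AAA*, against 53.2% of Chr.2 beyond AUR2 and 11.3% of all expressed genes. In *AAa* only AT2G26190 was called higher than WT (log2 0.70) and only AT2G26210 lower (log2 -0.47). Calls in either direction were 16% on Chr.2 beyond AUR2 and 21% over all expressed genes. Between the trisomics, all 20 genes after AUR2 had a ratio below 0, as did 597 of the 645 on Chr.2 beyond AUR2 and 3656 of all 7244. Of the same 20 genes, 12 were called lower in *AAa*, against 60.3% of that stretch and 11.7% of all expressed genes. Before AUR2, 3 of the 20 were called (AT2G25625 higher, AT2G25510 and AT2G25735 lower), against 15.9% of Chr.2 up to AUR2 and 22.4% of all expressed genes. AT2G26190, AT2G25625 and AT2G25510 are named here after their values were seen.

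Some genes near AUR2 differed between the trisomics by more than their copies. PDF1.2b, a plant defensin gene of jasmonate-linked defence, is the first expressed gene beyond AT2G25970 and had 1461 and 1366 in *AAa*, 12565 and 10427 in *AAA*, and 1305 and 1254 in WT. Its log2 ratio of *AAa* to *AAA* was -3.05 (limma adjusted p = 3.01e-11). Its probe set is of a type that can detect related transcripts, so other defensin genes may share the signal. AR781 had 1335 and 1286 in *AAa*, 3649 and 3552 in *AAA*, and 1658 and 1585 in WT, a log2 ratio of -1.49 between the trisomics. AT2G26730 and AT2G26210 each had a log2 ratio of -0.98 between the trisomics. On the other side, AT2G25735 lies just outside the 5 genes before AUR2. It had 1027 and 1148 in *AAa*, 1689 and 1648 in *AAA*, and 599 and 700 in WT. It has 3 copies in both trisomics, and its log2 ratio was 0.79 in *AAa*, 1.45 in *AAA* and -0.66 between them (limma adjusted p = 0.00143).

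**Figure D3:**
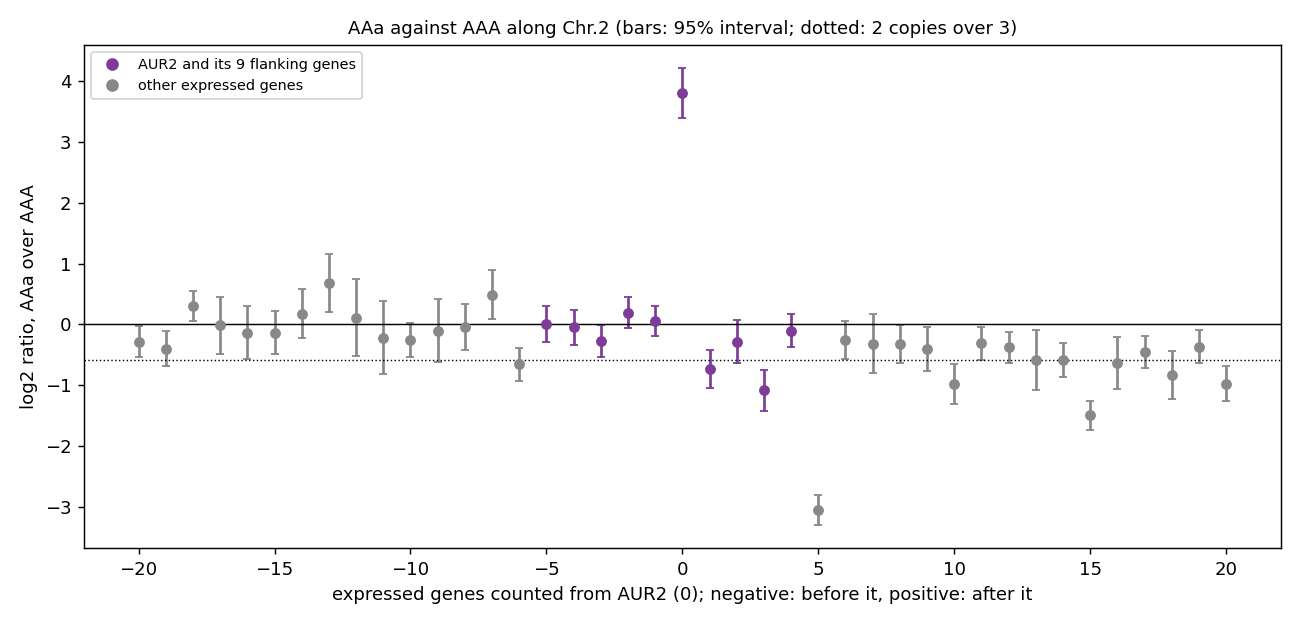
Log2 ratio of *AAa* over *AAA* (y axis) with 95% intervals for AUR2 (0 on the x axis) and the 20 expressed genes on each side of it, in locus order; the dotted line is the log2 of 2 copies over 3. The median is -0.05 before AUR2 and -0.52 after it, AUR2 stands at 3.81, and the lowest point is PDF1.2b at -3.05.

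At the other end of the junction, the genes of Chr.3 that the extra chromosome of *AAa* carries differed in the same way. The 5 expressed genes before AT3G20040 had a median log2 ratio of 0.77 in *AAa* over WT and -0.25 in *AAA* over WT, and 4 of them were called higher in *AAa* than in WT, against 14.2% of all expressed genes. The 5 after it, with 2 copies in every karyotype, had medians of 0.07 and -0.00, and 2 of them were called higher in *AAa* than in WT (log2 up to 0.67). None of these 10 genes came near the AUR2 ratio, the highest being 1.02 in *AAa*.

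Few of the other aurora kinases or their partners could be tested beside AUR2. The list of aurora kinases, chromosomal passenger and spindle checkpoint genes held 10 genes besides AUR2, of which 7 had a named probe set and 2 counted as expressed. AUR1, on chromosome 4 with 2 copies throughout, had 185 and 110 in *AAa*, 118 and 112 in *AAA*, and 198 and 130 in WT. The *AAa* arrays spanned those of *AAA* and overlapped with WT, whereas both *AAA* arrays lay below both WT arrays. Its log2 ratio was -0.12 for *AAa* over WT (95% interval -0.68 to 0.44, adjusted p = 0.792), -0.40 for *AAA* over WT (-0.96 to 0.16, adjusted p = 0.375) and 0.27 for *AAa* over *AAA* (-0.29 to 0.83, adjusted p = 0.510). BUB3.1, a spindle checkpoint gene, had 304 and 319 in *AAa*, 255 and 272 in *AAA*, and 317 and 274 in WT, with log2 ratios of 0.13 for *AAa* over WT, -0.08 for *AAA* over WT and 0.20 for *AAa* over *AAA*. Neither gene passed the limma test in any of the 3 comparisons. Of all expressed genes 21% were called for *AAa* over WT, 1042 of 7244 for *AAA* over WT and 22.4% for *AAa* over *AAA*. Against these shares, 2 genes without a call say little about the family.

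The 5 other measured genes of the list were too dim to test. AUR3, which has 3 copies in *AAA* alone, gave 37.2 and 39.9 in *AAa*, 25.3 and 52.6 in *AAA*, and 22.7 and 35.7 in WT. HTR12, the centromeric histone H3, gave 49.9 and 54.7 in *AAa*, 49.7 and 48.8 in *AAA*, and 73.1 and 60.1 in WT. WYR, the plant relative of the passenger protein INCENP, AT4G39630 and the checkpoint gene BUBR1 lay between 3.40 and 49.9 on all arrays. None of the 5 showed a step in *AAa* like that of AUR2.

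**Figure D4:**
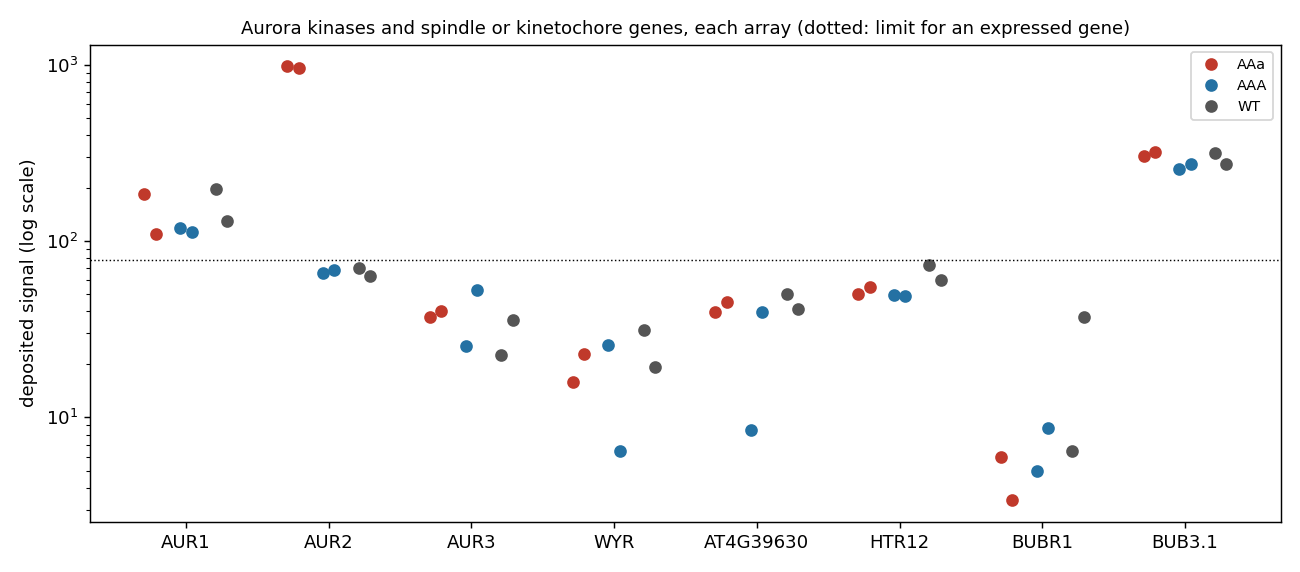
Deposited signal on each array (log axis) of the 8 measured aurora kinase, passenger and checkpoint genes, with *AAa*, *AAA* and WT from left to right; the dotted line is the limit for an expressed gene, 77.8. AUR2 is the only gene whose *AAa* arrays (978 and 954) stand above those of both other karyotypes. The *AAa* arrays of AUR1 (185 and 110) overlap with both other karyotypes, and those of HTR12 (49.9 and 54.7) lie between *AAA* and WT, under the limit. Levels of different probe sets cannot be compared as transcript amounts.

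Genes of mitosis and S phase were looked at for the same reason. None of the 19 mitosis genes and 9 S phase genes of the lists had a named probe set. A further 11 cell division genes were therefore picked by their symbols once it was known which genes had a probe set, and 8 of them counted as expressed. Their median log2 ratio was -0.20 for *AAa* over WT, -0.24 for *AAA* over WT and 0.03 for *AAa* over *AAA*, beside 0.05, 0.04 and -0.00 over all expressed genes. In *AAa* against WT, where 14.2% of all expressed genes were called higher, KINESIN-13A, a microtubule-depolymerizing kinesin, rose (log2 0.56, limma adjusted p = 0.00294). It lies in the stretch of Chr.3 with 3 copies in *AAa*. HTB2, a histone H2B gene (log2 -0.56), and SIM, a cyclin-dependent kinase inhibitor gene (log2 -0.68), fell in *AAa* (limma adjusted p = 0.0189 and 0.019), where 6.82% of all expressed genes were called lower than in WT. Without *AAa* array 2 or WT array 1, 1 gene of the list was called in *AAa*, in place of 3. In *AAA* only the microtubule-bundling gene ATMAP65-6, with 3 copies in both trisomics, was called higher than in WT (log2 0.75, limma adjusted p = 0.00136), against 11.3% of all expressed genes. In *AAa* its log2 ratio to WT was 0.07 (adjusted p = 0.764). Between the trisomics, ATMAP65-6 was lower in *AAa* (log2 -0.68, limma adjusted p = 0.00176) and KINESIN-13A was higher (log2 0.47, limma adjusted p = 0.0076). These 2 calls among 8 expressed genes are near the share of all expressed genes called in that comparison, 22.4%. Without *AAa* array 2 or *AAA* array 2, 1 gene of the list was called between the trisomics.

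The genes whose pattern was most like that of AUR2 were sought among the 51 expressed genes with a log2 ratio of at least 1 for *AAa* over both *AAA* and WT. By Pearson's r with AUR2 over the 6 arrays they were AT3G03790 (0.993), SBT3.5 (0.990), AT1G57630 (0.989), SBT3.3 (0.988) and AT5G39520 (0.987). SBT3.5 and SBT3.3 encode subtilisin-like proteases. These coefficients describe 6 shared arrays that fall into *AAa* and the rest, and they come from a choice of genes high in *AAa*. SBT3.5 had 739 and 809 in *AAa*, 354 and 315 in *AAA*, and 326 and 346 in WT, the same 2 levels as AUR2 with a smaller step. Over WT, the *AAa* signal was 2.14-fold to 2.38-fold in the 5 genes and 14.9-fold in AUR2. AT3G03790 lies in the part of Chr.3 with 3 copies in *AAa*, and the other 4 genes have 2 copies in every karyotype.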

How the data were processed

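RNA of rosette leaves was measured on 6 ATH1 arrays, grouped by their titles. The deposited values are intensity units: linear probe set signals that the authors made with GCOS (version not given in the sources used here), with a trimmed mean of 500.0 to 500.1 on each array. The study analysed GC-RMA and vsn values, which played no part here. Each array had 246 to 489 signals below 1.

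Signals were floored at 1, taken to log2 and centred on the median of 5467 expressed genes with 2 copies in all karyotypes. Expressed genes had a mean log2 signal at or above the 40th percentile (6.28, a signal of 77.8) of 22746 probe sets, without 64 controls. Of 22810 probe sets 13513 had 1 gene, 503 several and 8794 none in the platform table, and 77 single-gene probe sets matched no locus. The brightest probe set represented a gene. Gene names and order came from RefSeq (TAIR10.1). The files name no genome build and no sequence table was used, so neither coordinates nor sequences are printed.

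All 3 karyotypes entered 1 fit in limma 3.58.1 (R 4.3.3; lmFit, contrasts, eBayes with intensity trend, 3 residual degrees of freedom and a prior of 13.5). The two-sided tests had Benjamini-Hochberg adjustment over 7244 genes, threshold 0.05. "Higher", "lower", "rose" and "fell" as calls refer to it. The number of arrays limits precision: an exact permutation test of 2 against 2 arrays cannot give a p below 0.333. A check on simulated data drew independent noise from the spread that the same fit had estimated. It cannot show how the test behaves if the arrays of a karyotype are technical repeats. The comparisons with WT share its arrays.

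Replicate numbers did not pair the arrays: deviations of same-numbered arrays correlated at -0.05 to 0.02. The genes, lists and tests were chosen with earlier results of these data known. Named are the 10 genes, AUR1 and AUR3, up to 3 expressed genes with the smallest p in each comparison from the aurora, mitosis and S phase lists, up to 6 of the 20 genes on each side with the smallest p for *AAa* over *AAA*, and the 5 genes most like AUR2. From the cell division genes picked later, those called in a comparison are named, and so were chosen by their outcome. Other floors, scalings, filters, probe set rules, fits and left-out arrays were tried.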

Additional observations from a re-analysis of the deposited data

Results flagged for a closer look

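In 3 of the 10 genes the 2 trisomics responded differently from each other relative to WT, as tested by the direct contrast of *AAa* with *AAA* in limma. Of all expressed genes 22.4% were called in that contrast. For AUR2 the contrast was 3.81 on the log2 scale (adjusted p = 1.18e-09), with a ratio to WT of 3.90 in *AAa* and 0.08 in *AAA*. AUR2 counted as expressed through its *AAa* arrays alone, so its flag is a description. With no limit on dim genes its limma adjusted p was 7.49e-06. For AT2G25950 it was -1.08 (adjusted p = 0.000181), with -0.22 in *AAa* and 0.86 in *AAA*. For AT2G25910 it was -0.726 (adjusted p = 0.002), with -0.39 in *AAa* and 0.34 in *AAA*. In each case both *AAa* arrays lay on one side of both *AAA* arrays. The copies differ between the trisomics for all 3 genes, 2 intact and 1 interrupted copy in *AAa* against 3 in *AAA* for AUR2, and 2 copies against 3 for the other two.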

How the results depend on the processing

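Across 18 alternatives, 788 of 853 values were scored as unchanged. A ratio had to keep its direction and side of the threshold, and a median had to stay within the spread. A count was allowed a moderate change, so a fall from 5 to 4 genes called before AUR2 was scored as unchanged. Some values could not change, such as the median for *AAa* over WT when an *AAA* array was left out. AUR2 stayed between 3.80 and 3.97 for *AAa* over WT and between 3.76 and 3.85 for *AAa* over *AAA* in the 16 alternatives that gave a value (adjusted p at most 2.54e-05 and 7.49e-06). With the filter at the 60th percentile AUR2 was no longer an expressed gene and gave none. For *AAA* over WT, the AUR2 ratio turned to -0.00014 when arrays were centred on all expressed genes.

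The block on replicate number, on arrays that the numbers did not pair, left AUR2 at 3.90 (adjusted p = 1.57e-09) for *AAa* over WT, changed no call among the 10 genes, and moved the calls over all expressed genes to 1484, 1021 and 1567, against 1523, 1042 and 1622 without it, for *AAa* over WT, *AAA* over WT and *AAa* over *AAA*. Leaving out each array in turn gave 3 to 5 genes before AUR2 called higher in *AAa* and 0 to 1 genes after it called in *AAa* against WT, the 1 being AT2G25910 without *AAa* array 2. AT2G25910 was also the 1 gene after AUR2 called with arrays as deposited (-0.43), centred on all expressed genes (-0.48) or quantile normalized (-0.48). The median of the genes before AUR2 was 0.51 in *AAa* and 0.53 in *AAA* when centred on all expressed genes, 0.52 in *AAA* after quantile normalization, and 0.54 to 0.71 in *AAA* with an array left out. The median after AUR2 was -0.340 to -0.00205 for *AAa* over WT and -0.67 to -0.34 for *AAa* over *AAA* with an array left out.

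The call of AT2G25760 was lost under 9 of 18 alternatives in *AAa* (adjusted p up to 0.164) and 7 of 18 in *AAA* (up to 0.215), including its second probe set in *AAA*, an alternative chosen after seeing the data. AT2G25740 lost its call in *AAa* without *AAa* array 1 or WT array 2, and in *AAA* without *AAA* array 2 or WT array 2. AT2G25800 lost it in *AAa* without *AAa* array 2. Signs turned only in ratios that were not called. With an array left out, for *AAa* over WT, AT2G25920 ranged from -0.260 to 0.0189 and AT2G25950 from -0.447 to 0.0041. For *AAa* over *AAA*, AT2G25740 ranged from -0.0363 to 0.0564, AT2G25760 from -0.165 to 0.0683 and AT2G25970 from -0.219 to 0.0103. AT2G25760 was also at 0.0043 with the mean of its probe sets and at 0.0554 with its second probe set. The causes were not tested.

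Calls over all expressed genes ranged from 816 to 1547, 520 to 1046 (683 with no filter) and 927 to 1729. For the comparisons with WT, other scalings placed the median of genes with 2 copies between -0.05 and -0.09 (log2), and for *AAa* over *AAA* between -0.01 and 0.03. The share of calls that were higher was then 57.5%, 48.4% and 53.7% for *AAa* over WT (as deposited, centred on all expressed genes, quantile), against 67.6%, and 60.8%, 60.8% and 61.1% for *AAA* over WT, against 78.9%. Signal over background limits AUR2 in *AAA* and WT, where both lie under the limit for an expressed gene.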
